A study of Mus musculus with 2 samples.

Results

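The genes described here encode enzymes that build haem, the iron-holding ring of haemoglobin, myoglobin and the cytochromes, and the enzyme Hmox1, which opens that ring. The 9 genes were Alas1, Alas2, Alad, Uros, Urod, Cpox, Ppox, Fech and Hmox1, taken by symbol from 43346 gene rows. All 9 were found. They were chosen by their TPM, expected counts and difference between the hearts, so these are given as descriptions, and transcripts and sequences are the measures that the choice did not use.

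Total RNA was sequenced from 2 hearts of B6NCrl mouse embryos at embryonic day 14.5, 1 library per heart. B6NCrl is a C57BL/6 substrain. The hearts form a single group with no treatment or altered allele named in the labels. Replicate 1 was collected on day 15 of July and replicate 2 on day 17, each as a single heart, and 10 ng of RNA longer than 200 nt entered each library together with spike-in RNAs. Both libraries carry the same donor label, which the labels give for embryos of different days.

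The libraries held total expected counts of 2.85e+07 and 2.90e+07 in replicates 1 and 2, of which the 9 genes took 20599 and 16789. All 7 cardiomyocyte markers were present, with a summed level of 40172 and 40460 TPM (transcripts per 1e+06, a level per length). They moved apart within that sum, with 4 counting intervals below 0 and 3 above, from a log2 difference (replicate 2 over replicate 1) of -0.18 for Myh7 to 0.43 for the atrial gene Myl7. Of 7 liver markers, 2 reached 1 TPM in both, and the list summed to 8.79 and 11.1 TPM. The 4 adult haemoglobin genes Hba-a1, Hba-a2, Hbb-bs and Hbb-bt summed to 58752 and 32818 TPM. The labels give pooled sex, yet the Y-linked gene Ddx3y had 2310 counts in replicate 1 and 0 in replicate 2, and Xist, the RNA of the inactive X chromosome, had 16 and 13912. Embryo, collection day, haemoglobin level and sex-linked expression therefore differed together and cannot be told apart in the comparisons of the hearts. In whole tissue, fewer cells of a type and less RNA per cell cannot be told apart either. With 1 library per embryo in 1 group, no p-value was computed.

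Haem synthesis starts in mitochondria, where an ALAS enzyme joins glycine and succinyl-CoA into aminolaevulinic acid. Alas1 serves most cells, and Alas2 is the form of erythroid cells, the precursors of red blood cells. The middle steps run in the cytosol, the last return to mitochondria, and ferrochelatase (Fech) inserts iron. Haem oxygenase cleaves haem to biliverdin, iron and carbon monoxide. A heart at this stage is both a muscle rich in haemoproteins and a chamber filled with blood, so both ALAS forms can be present in its RNA.

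Promoter windows are shown for 3 members, because one of them, Alas2, had the widest difference between the hearts of the 9, and the others, Cpox and Urod, had nearly equal levels. They are RefSeq reference sequences (GRCm38.p6) read 5′ to 3′ on the gene's strand, and end at the RefSeq start or, for Alas2, at the first annotated exon. Capitals mark CCACCC, a site of erythroid Krüppel-like factor, and 4 forms of the site bound by GATA factors, all searched on both strands. The forms are AGATAA as the usual one, then TGATAA with another first base, then AGATAG with another last base, and finally TGATAG with both changed.
Alas2, chrX:150547167-150547374, plus strand: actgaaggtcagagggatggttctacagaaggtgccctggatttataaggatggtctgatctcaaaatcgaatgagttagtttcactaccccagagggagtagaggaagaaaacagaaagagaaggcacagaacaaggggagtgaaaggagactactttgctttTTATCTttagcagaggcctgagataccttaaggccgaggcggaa
Cpox, chr16:58669958-58670207, plus strand: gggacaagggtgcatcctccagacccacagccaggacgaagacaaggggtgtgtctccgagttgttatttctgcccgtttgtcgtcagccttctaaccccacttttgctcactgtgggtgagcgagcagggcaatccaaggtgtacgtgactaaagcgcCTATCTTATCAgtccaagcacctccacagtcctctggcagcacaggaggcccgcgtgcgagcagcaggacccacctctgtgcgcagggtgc
Urod, chr4:116994414-116994663, minus strand: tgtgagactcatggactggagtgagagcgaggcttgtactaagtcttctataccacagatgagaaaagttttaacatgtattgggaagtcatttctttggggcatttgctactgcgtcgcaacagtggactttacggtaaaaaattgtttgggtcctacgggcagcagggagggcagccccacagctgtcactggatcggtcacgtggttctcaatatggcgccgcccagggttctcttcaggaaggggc

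The Alas2 stretch held 1 AGATAA on the minus strand, 86 to 81 bases before the RefSeq start. Another 42 bases of its 250-base window lie in the first exon of the transcript Alas2-201. There the minus strand held 3 CCACCC matches, each sharing 1 base with the next, from 40 to 25 bases before the start. The Cpox stretch held AGATAG at 91 to 86 bases and TGATAA at 86 to 81 bases before its start, both on the minus strand and sharing 1 base. The Urod stretch held none of these letters. As a measure of how common such matches are, 26.6% of 32807 RefSeq windows of 250 bases held at least 1 of the 4 GATA forms, 6.41% held at least 2 matches to them and 1.78% held at least 3 CCACCC matches.

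The table had windows for 7 of the 9 genes, 10 windows in all, and none for Fech or Hmox1. GATA forms were found in the windows of Alas2, Cpox and an internal start of Uros, 6569 nt from the start of the leading Uros transcript, and in no window of Alad, Alas1, Ppox or Urod. The window before the start of Alas1-202 had 42 CpG pairs and 74.4% G and C, beside a median of 6 and 52.4% over all windows. Alas1-202 itself held 0.11% and 0.25% of the TPM of Alas1 in replicates 1 and 2. The other Alas1 window, nearer the start of the leading transcript Alas1-201, had 16 CpG pairs and 62.4% G and C. The Alas2 window had 4 CpG pairs and 51.2% G and C. The Alas1 windows lie largely or wholly in annotated exons and are not printed. A match is a run of letters and says nothing of binding.

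On the scale of TPM the 9 genes spanned 12.8 ± 2.44 (SD, n = 2, as for all levels here) for Hmox1 to 94.5 ± 42.8 for Alas2. By mean level the order was Alas2, Alas1, Fech, Urod, Alad, Ppox, Uros, Cpox and Hmox1. The values of neighbours overlapped between libraries from Alas2 down to Urod, so the order of these 4 genes is not resolved. From Urod to Alad and below, no neighbours overlapped. Replicate 1 had Alas2 at the top, followed by Fech, Alas1 and Urod. In replicate 2 Alas1 came first, followed by Urod, Fech and Alas2, while places 5 to 9 were the same in both hearts.

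**Figure D1:**
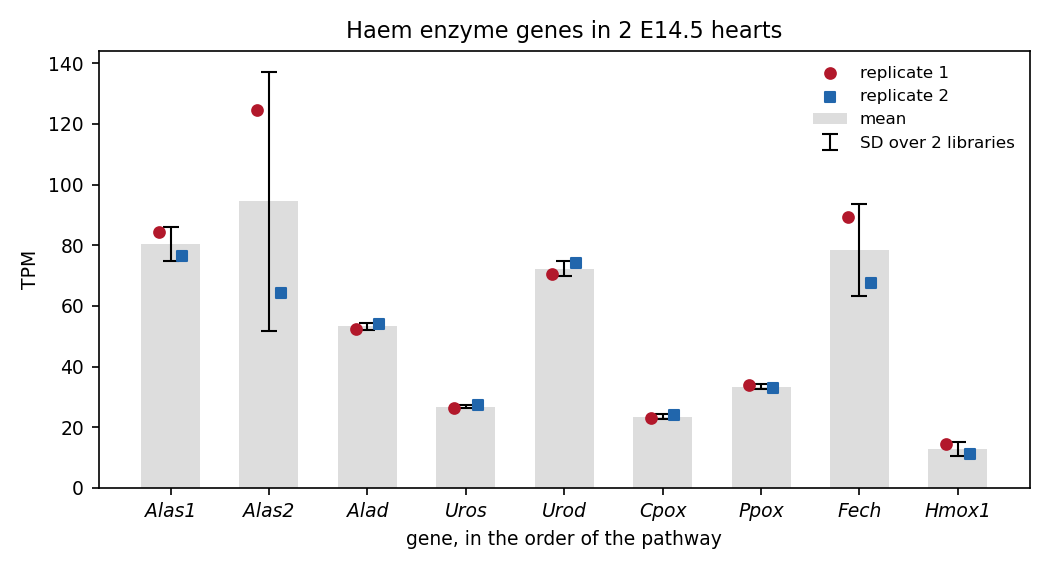
Level of each enzyme gene in TPM (vertical axis, linear from 0) in the order of the pathway. Circles are replicate 1, squares replicate 2, bars the mean and error bars the SD over 2 libraries. Alas2 has the widest gap, from 125 to 64.3 TPM.

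For the first step, Alas2 (chromosome X from 150547375 to 150570638, plus strand) had 4862 counts and 125 TPM in replicate 1. In replicate 2 it had 2456 counts and 64.3 TPM. After scaling by the trimmed mean of M-values (TMM), the log2 difference, replicate 2 over replicate 1, was -1.04 (95% interval -1.11 to -0.97). This is a level 2.06-fold lower in replicate 2 (1.96 to 2.16), and the interval, like all those below, covers counting error only. Among the 1000 genes nearest in count none had a lower value, and 95% of these genes lay between -0.24 and 0.21. Of 11958 genes whose counts averaged 100 or more, 14 were at least 2-fold lower in replicate 2 (0.117%), beside 0.309% higher and 0.426% in either direction. Scaled by the spike-ins instead, which moved the median of all genes from -0.01 to 0.11, Alas2 stood at -0.93, and by the deposited FPKM ratio at -0.97, both short of 2-fold.

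Alas1 (chromosome 9 from 106233455 to 106248654, minus strand) had 3352 counts and 84.4 TPM in replicate 1. It had 3056 counts and 76.4 TPM in replicate 2. The ubiquitous form was slightly lower in replicate 2, with a log2 difference of -0.19 (-0.26 to -0.12). This value was at percentile 5.3 of genes of like count, inside their range of -0.24 to 0.19.

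The balance of the 2 ALAS genes turned over between the hearts. In replicate 1 Alas2 had 1.48 times the level of Alas1, and in replicate 2 Alas1 had 1.19 times the level of Alas2. The log2 ratio of Alas2 over Alas1 was 0.56 and -0.25, a mean of 0.16 ± 0.58, so neither gene led the other beyond the spread. By counts, Alas2 held 59.2% (Clopper-Pearson 58.1 to 60.3) and 44.6% (43.2 to 45.9) of the pair. These ratios are taken within a library and do not depend on scaling between libraries.

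Transcripts of both ALAS genes were split. Alas2-201 led its gene with 72.8% and 67.6% of its TPM (70.2% ± 3.71), and Alas2-202, which also encodes protein, took 24.5% and 26.9%. Each has 11 exons, and 8 of them are identical. Exon 3 begins at 150552959 in Alas2-201 and at 150553004 in Alas2-202, which leaves 123 and 78 nt. Exon 1 was 111 nt in the former and 27 nt in the latter. The same transcript led in both hearts. Alas2 shares 311 of its 2403 exonic bases with Apex2 on the opposite strand, a gene with 355 and 387 counts, and the sources used here do not give the use of strand.

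For Alas1, the coding transcript Alas1-201 led with 47.2% and 42.3% of the gene's TPM. A processed transcript without an annotated reading frame, Alas1-206, took 37.9% and 41.2%. All coding transcripts of Alas1 together made up 54.4% and 50.9%, whereas those of Alas2 made up 97.3% and 94.5%. The gene-level value of Alas1 includes a large assigned share that the annotation does not call coding.

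The cytosolic steps had nearly equal levels in the hearts. Alad (chromosome 4 from 62509169 to 62519918, minus strand), which condenses aminolaevulinic acid into porphobilinogen, had 1220 and 1263 counts, or 52.5 and 53.9 TPM. Its log2 difference was -0.01 (-0.12 to 0.11). Alad-201 carried 99.1% ± 0.33 of its TPM, the most uniform of the genes with more than 1 expressed transcript.

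Uros (chromosome 7 from 133686243 to 133710072, minus strand) closes a linear precursor into a ring. It had 814 and 880 counts and 26.4 and 27.2 TPM, with a log2 difference of 0.05 (-0.08 to 0.19). Its reads were spread over more transcripts than those of Alad. Uros-203 had 37.4% and 38.5%, Uros-204 had 28.7% ± 0.41 on average, and the retained-intron transcript Uros-206 had 17.2% and 19.5% of the TPM. The SD of a transcript share, here as for other genes, is over libraries and leaves out error of assignment. In replicates 1 and 2 the posterior SD was 54.9 and 56.0 reads for Uros-203, on 319 and 340 counts. For Uros-204 it was 54.5 and 58.8 reads, on 221 and 224 counts. Uros-209, the transcript nearest the internal start whose window held GATA forms, had 4.73 expected counts in replicate 1 and 0 in replicate 2. It begins 116 nt from that RefSeq start, and its counts are assigned by a model, so they do not measure use of the start.

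Urod (chromosome 4 from 116989965 to 116994413, minus strand) removes carboxyl groups from the ring. It had 1757 and 1786 counts and 70.6 and 74.0 TPM. The counts differed by -0.03 on the log2 scale (-0.13 to 0.06). Urod-201 led with 75.1% ± 4.58 of the TPM, and retained-intron transcripts had 14.5% and 23.5% (6.82% and 11.8% by counts). Urod was the most abundant cytosolic member, above Alad in both hearts.

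The oxidases of the next steps were below Urod and Alad in both hearts. Cpox (chromosome 16 from 58670292 to 58717636, plus strand), which works between the mitochondrial membranes, had 1480 and 1567 counts and 22.9 and 24.1 TPM. Its log2 difference was 0.02 (-0.08 to 0.13). The tables held 1 transcript for Cpox.

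Ppox (chromosome 1 from 171275990 to 171281186, minus strand) forms protoporphyrin. It had 1429 and 1441 counts and 33.9 and 32.8 TPM, with a log2 difference of -0.05 (-0.15 to 0.06). Retained-intron transcripts took 43.9% and 39.5% of its TPM, the largest such share of the 9 genes in both hearts. By counts the share was 52.1% and 51.3%, most of it on Ppox-207, which is 4411 nt long. Ppox shares 791 of its 4515 exonic bases with B4galt3 on the opposite strand, a gene with 1359 and 1493 counts, and the same limit on strand applies. The posterior SD of its gene count was 10.7 and 10.2 reads, the largest of the 9 genes at gene level.

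**Figure D2:**
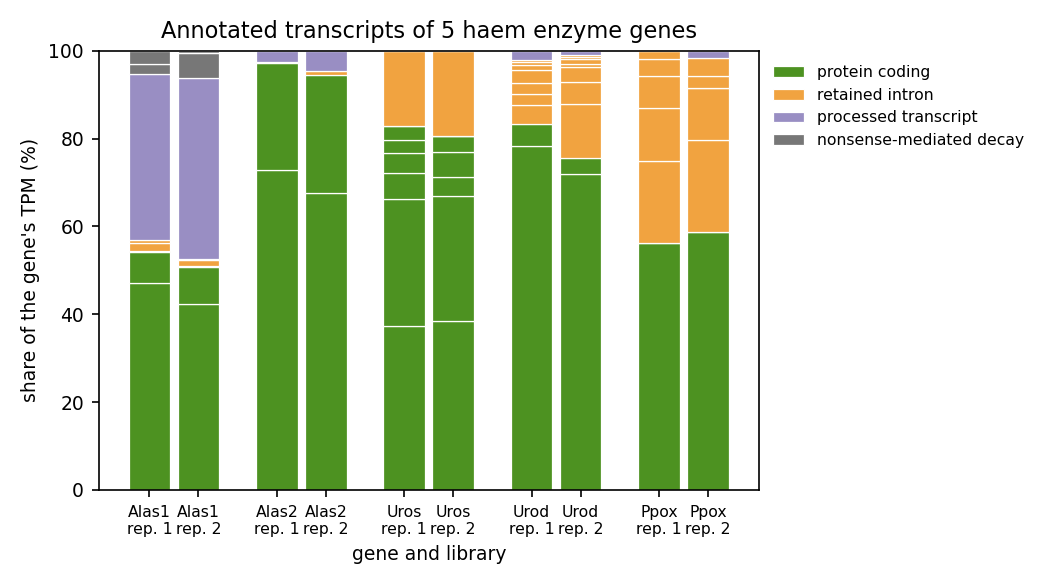
Share of each gene's TPM (vertical axis, percent) by annotated transcript for 5 enzyme genes, 1 bar per library, with a segment for each transcript and a colour for its type. Retained-intron transcripts take 43.9% and 39.5% of Ppox, and a processed transcript 37.9% and 41.2% of Alas1.

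Fech (chromosome 18 from 64452914 to 64490251, minus strand) inserts iron in the last step. It had 5227 counts and 89.2 TPM in replicate 1, and 3989 counts and 67.7 TPM in replicate 2. The log2 difference was -0.45 (-0.51 to -0.39), or 1.36-fold lower in replicate 2 (1.31 to 1.42). It was at percentile 0.3 of genes of like count, outside their range of -0.25 to 0.23. The erythroid first step and the last step were both lower in replicate 2, Alas2 by more than Fech.

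The 6 synthesis members other than Alas2 and Fech summed to 290.64 and 288.4 TPM. Their log2 differences ran from -0.19 to 0.05 with a median of -0.02, which became 0.09 when scaled by the spike-ins. Set against the level of Alas2, all 6 and Fech had a higher ratio in replicate 2, as the Alas2 difference itself entails. Urod over Alas2 had a log2 ratio of -0.82 and 0.20, Cpox over Alas2 -2.44 and -1.41, and Fech over Alas2 -0.48 and 0.07. Set against Alas1, Ppox was at -1.32 and -1.22, Urod at -0.26 and -0.05, and Fech at 0.08 and -0.18, the widest shift of these and one that changed sign.

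Over all 9 genes, the counting interval left out 0 for 4, which were Alas1, Alas2, Fech and Hmox1, all lower in replicate 2. Among all genes tested such intervals were common, with 20.4% lower and 17% higher in replicate 2 (37.4% in either direction). Scaled by the spike-ins the same 4 were lower, Uros and Cpox were higher, and 5.12% and 44.1% of all genes lay lower and higher. The median of the 9 genes was -0.05, beside -0.01 over all genes, and only Alas2 was at least 1.5-fold lower, as were 0.61% of genes. Higher by that fold were 1.31% of all genes and no member, which makes 1.92% of genes in either direction. The all-gene shares in this paragraph are also the background for the counts given for each gene list.

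**Figure D3:**
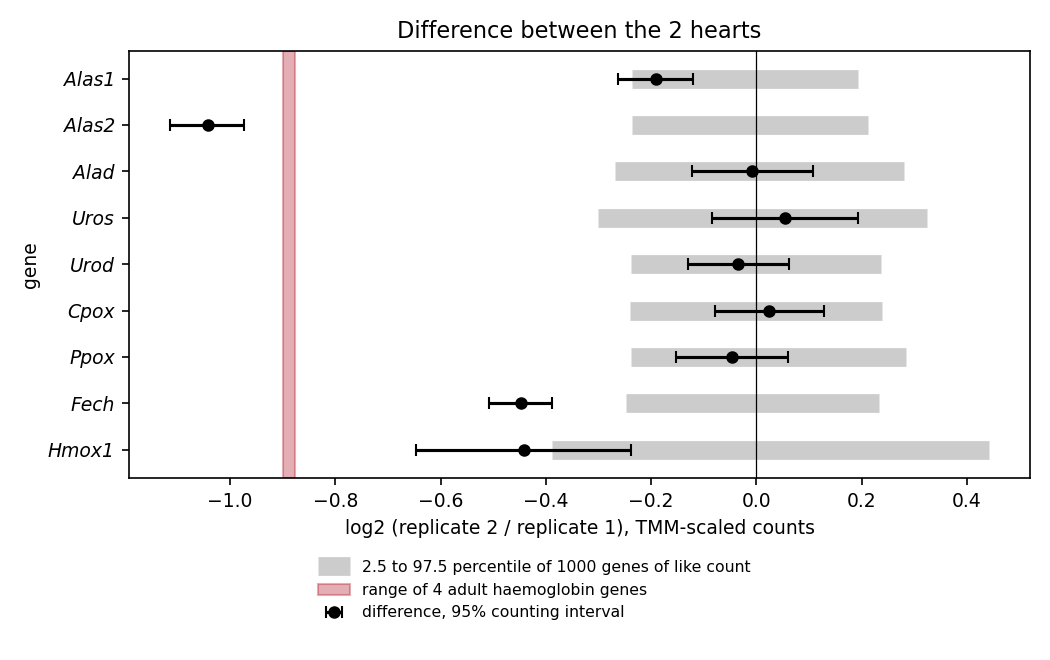
Log2 difference of TMM-scaled counts, replicate 2 over replicate 1 (horizontal axis), for each gene with its 95% counting interval. Grey bars are the central 95% of 1000 genes of like count and the red band is the range of 4 adult haemoglobin genes. Alas2 (-1.04), Fech (-0.45) and Hmox1 (-0.44) lie outside their grey bars.

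Markers of erythroid cells moved with these members. Hba-a2, an adult alpha-globin gene, had 26822 and 14936 TPM, with a log2 difference of -0.89. Hbb-bs had 12086 and 6774 TPM, Hbb-bt 10074 and 5594, and Hba-a1 9770 and 5514. The difference of the 4 adult genes was -0.88 to -0.90, short of that of Alas2. Slc4a1, the anion exchanger of the red cell membrane, was past it at 9.21 and 4.36 TPM (-1.13).

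Of 20 listed erythroid markers, 12 reached a mean count of 100. Their median was -0.65 (-0.54 with spike-in scaling), 6 were at least 1.5-fold lower, and the interval lay below 0 for 10 and above it for none (8 and 1 with spike-in scaling). Summed levels of the list were 61082 and 34762 TPM. Gata1, the X-linked erythroid factor, had 0.42 and 0.18 TPM (16 and 7 counts), and Klf1 had 1.96 and 1.36 TPM (59 and 41 counts), both with intervals that held 0. Epor, the erythropoietin receptor gene, also below the minimum count, was higher in replicate 2, with 1.49 and 3.24 TPM (log2 difference 1.06, 0.59 to 1.56). The part of erythroid RNA in the differences of Alas2 and Fech was not tested.

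Relative to adult haemoglobin the members behaved differently from each other. Per 1000 counts of the 4 genes there were 7.94 Alas2 counts (Clopper-Pearson 7.71 to 8.16) in replicate 1 and 7.15 (6.87 to 7.44) in replicate 2. Fech gave 8.53 (8.30 to 8.77) and 11.6 (11.3 to 12.0). The Alas2 ratio was thus a little lower and the Fech ratio higher in replicate 2. On the log2 scale of TPM, Alas2 over adult haemoglobin was -8.88 and -9.00, and Fech over adult haemoglobin was -9.36 and -8.92. Alas2 over Slc4a1 had log2 ratios of 3.76 and 3.88, closer to each other than those of Alas2 over Alas1.

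Hmox1 (chromosome 8 from 75093621 to 75100589, plus strand), the inducible haem oxygenase, was the least abundant member. It had 458 counts and 14.5 TPM in replicate 1, and 351 counts and 11.1 TPM in replicate 2. The log2 difference was -0.44 (-0.65 to -0.24), or 1.36-fold lower in replicate 2 (1.18 to 1.57). The value was at percentile 1.2 of genes of like count, outside their range of -0.39 to 0.44, which is wider than that of Fech at this lower count. All of its reads were assigned to Hmox1-201.

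The constitutive Hmox2 was the more abundant oxygenase, at 67.2 and 79.1 TPM. It had 4.63 and 7.15 times the level of Hmox1, with a log2 difference between the hearts of 0.14. Hmox2 led Hmox1 in both hearts (log2 ratio of Hmox1 over Hmox2 -2.52 ± 0.44). Of the biliverdin reductases, Blvrb had 44.5 and 37.6 TPM (-0.32), and Blvra had 31.1 and 35.3 TPM (0.11). Por, which passes electrons to haem oxygenase, had 27.2 and 25.8 TPM. Over these 4 partners of Hmox1 the median was 0.01, with 1 interval below and 1 above 0 (1 and 2 with spike-in scaling).

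Macrophages of spleen and liver take up aged red cells and are rich in Hmox1. Of 12 macrophage markers, 9 reached a mean count of 100, with a median of -0.13 (-0.02 with spike-in scaling) and summed levels of 208 and 199 TPM. The interval lay below 0 for 4 of them and above it for none (2 and 1 with spike-in scaling). Among all genes tested, 20.4% lay below and 17% above (5.12% and 44.1% with spike-in scaling). Lyz2 had 89.7 and 85.6 TPM, and the complement genes C1qb, C1qc and C1qa had 38.5 and 36.3, 20.7 and 21.9, and 18.1 and 20.6 TPM. The markers whose intervals lay below 0 were Cd68 (11.7 and 9.68 TPM, -0.45), Csf1r (15.0 and 11.6 TPM, -0.39), Cx3cr1 (7.02 and 5.82 TPM, -0.28) and Lyz2 (-0.12). The differences of Cd68 and Csf1r were close in size to that of Hmox1, unlike those of most markers on the list. Intervals of the other 5 held 0: Adgre1 (-0.22), C1qb (-0.13), Mrc1 (-0.06), C1qc (0.03) and C1qa (0.13). Cd163, the receptor for haemoglobin bound to haptoglobin, was at 0.08 TPM in both, and Spic, a factor of iron-recycling macrophages, was at 0.28 and 0.35 TPM. The part of macrophages in the Hmox1 difference was not tested.

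Regulators of these genes differed among themselves in direction. Bach1, the haem-sensing repressor of Hmox1, had 5.97 and 9.02 TPM (log2 difference 0.44, 0.27 to 0.61). Nfe2l2, an activator of Hmox1 under oxidative stress, had 41.0 and 43.1 TPM (0.03), and its partner Keap1 had 25.0 and 24.4 TPM (-0.08). Ppargc1a, a coactivator known to raise Alas1, had 55.0 and 50.3 TPM (-0.15), and Nrf1 had 23.0 and 25.8 TPM (0.06). Tal1, a blood and endothelial factor, was 1.5-fold or more higher in replicate 2, with 1.21 and 2.16 TPM (0.66). On 103 and 170 counts, it was at percentile 95.2 of genes of like count, inside their range of -0.59 to 0.91. Of 13 listed regulators 10 were tested, with a median of 0.05, 2 intervals below 0 and 3 above (0 and 6 with spike-in scaling). Whether any regulator acted on the members was not tested.

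Hmox1 (-0.44, with an interval below 0) and the other Nfe2l2 targets tested were less than 1.5-fold apart. Only 1.92% of all genes tested were further apart than that, so sharing this limit does not make Hmox1 like the other targets. Txnrd1 had 51.1 and 53.2 TPM, Gclm 32.3 and 36.7, Gclc 6.25 and 7.49, and Nqo1 5.00 and 4.68. Of 7 listed targets 5 were tested, with a median of 0.01, no interval below 0 and 1 above (0 and 3 with spike-in scaling).

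Among suppliers of the mitochondrial steps, 1 gene was at least 1.5-fold apart, as were 1.92% of all genes tested. Slc25a37, mitoferrin-1, brings iron into erythroid mitochondria and had 32.3 and 17.9 TPM (2845 and 1610 counts). Its log2 difference was -0.88 (-0.97 to -0.79), or 1.84-fold lower in replicate 2, next to that of the adult haemoglobin genes. Per 1000 adult haemoglobin counts it gave 4.64 and 4.69 counts, intervals that overlap. Alas2 over Slc25a37 had log2 ratios of 1.95 and 1.85.

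The rest of the supply list was less than 1.5-fold apart, as were most genes tested. Tmem14c, a carrier of porphyrin precursors, had 190 and 184 TPM, Glrx5, of iron-sulfur assembly, had 185 and 176, Tspo 146 and 146, and the iron-sulfur scaffold gene Iscu had 99.8 and 102 TPM. Over 16 supply genes the median was -0.09 (0.02 with spike-in scaling). The interval lay below 0 for 6 and above it for 1 (1 and 3 with spike-in scaling).

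Of 13 genes of iron uptake, storage and sensing, 12 were tested, with a median of -0.02. The interval lay below 0 for 3 and above it for 1 (3 and 6 with spike-in scaling). The ferritin genes Ftl1 (2748 and 2810 TPM) and Fth1 (1510 and 1544 TPM) led the list, followed by the iron chaperone Pcbp1 (232 and 243 TPM) and Ncoa4, which delivers ferritin for breakdown (110 and 92.2 TPM). Ferritin messages were far above those of any of the 9 enzymes.

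Haem carriers had a median of 0.06 over 8 tested of 9. No interval lay below 0 and 2 lay above (0 and 5 with spike-in scaling). Pgrmc1, a haem-binding membrane protein, had 97.6 and 102 TPM, the exporter Abcg2 38.3 and 42.9, the endosomal haem transporter Slc48a1 36.8 and 39.5, and Pgrmc2 25.5 and 30.7 TPM.

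Genes of haemoproteins other than haemoglobin, listed with the reductase gene Cyb5r3, had a median of -0.04 over 9 genes. The interval lay below 0 for 5 and above it for none (0 and 5 with spike-in scaling). Cyc1, of respiratory complex III, had 788 and 750 TPM, the oxygen store Mb had 624 and 629, and the complex II subunits Sdhd and Sdhc had 592 and 563, and 475 and 490 TPM. None of the 9 was 1.5-fold apart, a difference that only 1.92% of all genes tested reached.

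**Figure D4:**
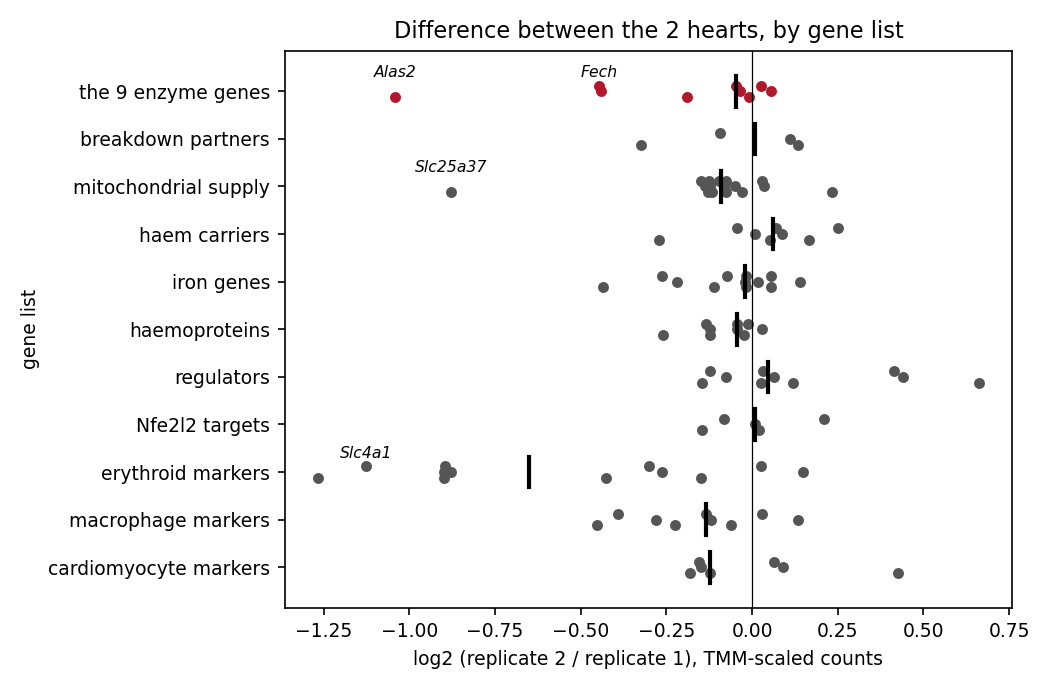
Log2 difference of TMM-scaled counts, replicate 2 over replicate 1 (horizontal axis), for each gene that averaged 100 counts or more, by gene list. Points are genes and black lines medians, at -0.65 for erythroid markers and -0.05 for the 9 enzyme genes.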

How the data were processed

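Reads were assigned on mm10 with GENCODE M4 gene models, per the notes deposited with the tables. Which aligner and counting tool were used, and whether strand was, is not given in the sources used here. The deposited tables give expected counts (estimated counts, not scaled), TPM and FPKM values scaled by the authors over all rows, and a posterior SD per count. Names and positions came from GENCODE M21 (GRCm38), matched by identifier without its version.

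Counts were rounded to whole numbers and scaled by TMM (edgeR 4.0.16 in R 4.3.3) over gene rows. Log2 differences used a prior of 0.5, and intervals are Clopper-Pearson on the share of both counts. Reads are not independent molecules. The scripts were tested on simulated data. The replicate spread may be partly technical. Alternatives were DESeq2 size factors (DESeq2 1.42.0), total counts, spike-ins, FPKM, another prior and other minimum counts.

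The 9 genes and the lists were chosen with earlier results of these data known. Named in each list were up to 4 genes of highest TPM, those 1.5-fold or more apart whose counts averaged 100 or more, and genes of the ratios. Bach1, Gata1, Klf1, Epor, Cd68, Csf1r, Cx3cr1, Cd163, Spic, Myh7 and Myl7 were named, and sex-linked genes added, after the data were seen. Adgre1, Mrc1 and Cyb5r3 were also named then. Some genes that the rule names are not reported here. In all, 129 of 130 listed symbols matched.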

Additional observations from a re-analysis of the deposited data

How the results depend on the processing

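Alas2, Fech, Hmox1 and Alas1 were lower in replicate 2 under every scaling, prior and count measure tried. Scaling by the spike-ins moved the median of all genes to 0.11. It gave log2 differences of -0.077 for Alas1, -0.93 for Alas2, -0.33 for Fech, 0.080 for Urod, 0.14 for Cpox and 0.069 for Ppox, and the FPKM ratio gave -0.97 for Alas2. The same scaling gave medians of 0.069 for the 9 genes, 0.094 for the 6 synthesis genes other than Alas2 and Fech, -0.54 for erythroid markers, 0.025 for mitochondrial supply and -0.019 for macrophage markers. Genes at least 2-fold lower in replicate 2 numbered 14, and 10 by spike-ins, 9 by FPKM, 253 with a minimum count of 10, 6 with 500 and 2260 with none. Those higher numbered 37, and 52 by spike-ins, 407, 5 and 2933 with the same minimums. Rescaled to gene rows, TPM was 86.8 for Alas1, 57.4 for Alad, 28.9 for Uros, 78.0 for Urod, 25.4 for Cpox and 36.0 for Ppox. By expected counts the leading share was 73.9% for Alas2-201, 98.7% for Alad-201, 38.9% for Uros-203, 89.3% for Urod-201 and 48.2% for Ppox-201. Leaving out 1 library turned the sign of 4 log2 ratios, which ran from -0.25 to 0.56 for Alas2 over Alas1, -0.82 to 0.20 for Urod over Alas2, -0.48 to 0.075 for Fech over Alas2 and -0.18 to 0.079 for Fech over Alas1. The cause of these shifts was not tested. Of 200 recomputed values, 165 kept within the limits set for them. For levels, ratios and transcript shares recomputed without 1 library, the limit was the SD over both libraries. A single library always lies within that SD of the mean, so only a change of sign of a ratio could show there. The 165 therefore includes values whose outcome was fixed in advance and does not measure stability. No paired analysis was possible because the series has 1 group.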

Other observations

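Genes below a mean count of 100 were left out of the counts by list. Among them, Hebp1, named after its values were seen, was higher in replicate 2. This haem-binding protein gene had 38 and 123 counts (1.89 and 6.08 TPM, log2 difference 1.62, 1.10 to 2.20). Embryonic haemoglobin genes, also named after their values were seen, differed less than the adult ones. Hbb-y had 1961 and 1648 TPM (-0.30), Hba-x 301 and 237 TPM (-0.43), and Hbb-bh1 12.1 and 13.9 TPM (0.15, with an interval that held 0). The transferrin receptor gene Tfrc had 44.7 and 37.3 TPM (-0.44), the lowest value of the iron genes tested and close to that of Fech.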
